A study of Homo sapiens with 8 samples.

Results

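THBS1 encodes thrombospondin 1, and every one of the 7 probe sets whose platform annotation names THBS1 alone was taken, of 54675 probe sets on the array and 41097 that name a single gene. No probe set named THBS1 together with another gene. The 7 probe sets read the same RNA on each array and are not replicates. The gene was picked because its signal was high in the drug-treated cells, so the difference between CEP701 and DMSO is given here as a description, with no test. Gene expression was measured on 8 Affymetrix arrays, 2 in each of 4 groups, in cells labelled HEL, an established line from a human erythroleukaemia whose JAK2 kinase is constitutively active, grown in RPMI medium with fetal bovine serum. In the drug arm the cells received CEP701 (lestaurtinib, an inhibitor of JAK2 and FLT3) at 0.5 µM for 16 h, or DMSO, its vehicle, for 16 h. In the shRNA arm the cells were a stable line carrying a pLKO lentiviral shRNA against the arginine methyltransferase PRMT5, made with a single hairpin, or cells with a scramble shRNA. No drug is named for the shRNA arm and no lentivirus for the drug arm, so the arms differ in more than the target. The labels do not state that replicates are separate cultures. The p-values therefore reflect the spread among these arrays alone, part or all of which may be technical.

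Thrombospondin 1 is a large secreted glycoprotein that forms trimers, binds cells and matrix, and activates latent TGF-beta. Megakaryocytes load it into the alpha granules of platelets, from which it is released on activation, and fibroblasts and endothelial cells make it too. Its receptors include CD36, through which it restrains blood vessel growth, CD47 and several integrins, and its gene is known as one that serum, stress and TGF-beta induce.

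In RefSeq (GRCh38.p14) THBS1 spans chr15:39581079-39599466, a length of 18388 bases. The 250 bases before its start, chr15:39580829-39581078 on the plus strand, are shown because transcription factors that are reported to act on this gene were measured on the same arrays. Capitals mark the matches, on either strand, to 4 motifs. One is the EGR1 site GCGTGGGCG, a zinc finger site. The SP1 box was searched as GGGCGG, which many promoters hold. The CCAAT box was searched by the letters of its name. The TATA-like stretch was searched as TTTAAAA, close to the start.
THBS1 promoter: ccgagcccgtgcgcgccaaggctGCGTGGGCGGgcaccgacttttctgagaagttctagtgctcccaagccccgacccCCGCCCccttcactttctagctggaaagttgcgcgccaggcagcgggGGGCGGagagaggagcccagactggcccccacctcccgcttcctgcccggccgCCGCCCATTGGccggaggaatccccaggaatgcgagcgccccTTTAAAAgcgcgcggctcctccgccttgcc
The EGR1 match began 227 bases before the start and overlapped the first of 4 SP1 boxes. A window of this length held the EGR1 letters in 0.72% of 35116 RefSeq promoters and the SP1 box in 42.6%. The CCAAT box, 66 bases before the start, was found in 32% of promoters, and the TATA-like stretch, 30 bases before it, in 7.57%. The AP-1 site TGANTCA (6.57% of promoters) and the E-box CACGTG of MYC and USF2 (6.34%) were not in this window. These matches describe letters and not bound sites.

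Of 9 measured erythroid and megakaryocytic markers, 8 were above the median of all signals, 59.98, on all 8 arrays. The exception, HBZ, was at 14.7 on scramble replicate 2 and 3.84 on PRMT5 shRNA replicate 2. LYZ, PECAM1 and COL1A1, listed as markers of other cell types, also exceeded that median on all 8. Passing this low cut therefore does not identify the line. The arms stood apart. Pearson's r between arrays across 26725 probe sets was 0.959 to 0.973 within a group, 0.949 to 0.968 for different groups in one arm and 0.804 to 0.842 across the arms. CD14, a monocyte marker, was at 2.09 to 16.5 in the drug arm and at 1224 to 2289 in the shRNA arm, and embryonic globin HBE1 at 9433 to 11721 and at 298 to 786. The 9 erythroid and megakaryocytic markers, HBE1 among them, summed to 31843 to 37934 in the drug arm and 22196 to 27820 in the shRNA arm. Not all were lower there, as ITGB3 was at 221 to 376 in the drug arm and 632 to 2743 in the shRNA arm. The 5 monocyte and macrophage markers summed to 5393 to 9054 in the drug arm and 28757 to 45940 in the shRNA arm. ELANE, a neutrophil protease, was at 3.78 to 37.8 in the drug arm and at 2244 to 11642 in the shRNA arm. Both arms carry the label HEL, and whether both came from the same stock of cells was not tested. The origin of the cells, the vector and the treatment cannot be told apart across the arms. Levels set across the arms are therefore given side by side without a test. PRMT5, the targeted gene, read 664 and 315 in the PRMT5 shRNA cells and 1794 and 984 in the scramble cells. Its log2 difference of -1.52 ± 0.34 (SE) did not pass without a replicate block (limma, adjusted p = 0.222) and passed with one (3.32e-04).

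Of other cell types that make thrombospondin 1, fibroblasts have 7 markers here, whose signals summed to 476 to 774 over the arrays, and only COL1A1 was above the median on all 8. COL3A1 was below it on every array. The 4 endothelial markers summed to 16993 and 16190 with CEP701, 11072 and 13118 with DMSO, and 3662 to 7657 in the shRNA arm, most of it from PECAM1, which platelets and their precursors also carry. CDH5, the endothelial cadherin, was at 245 and 319 with CEP701, 221 and 174 with DMSO and 2.05 to 5.79 in the shRNA arm. The part of these markers in the THBS1 levels was not tested. In bulk RNA, fewer cells of a type and less RNA per cell cannot be told apart.

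The probe set with the highest signal, 201110_s_at, read 948 and 876 with DMSO, 16268 and 17122 with CEP701, 7666 and 15295 with scramble, and 6812 and 15462 with PRMT5 shRNA. DMSO cells were thus the low group, apart from all 6 other arrays, and both CEP701 arrays were above every array of the shRNA arm. Means were 912 ± 51.5 with DMSO and 16695 ± 604 with CEP701 (SD, n = 2), which is 18.3 times as high. Scramble cells averaged 11480 ± 5395 and PRMT5 shRNA cells 11137 ± 6116 (SD, n = 2), so the spread within each shRNA group exceeded the difference between them. The highest THBS1 signal was below the highest signal of any probe set on those arrays, which was 65009 to 81198.

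**Figure D1:**
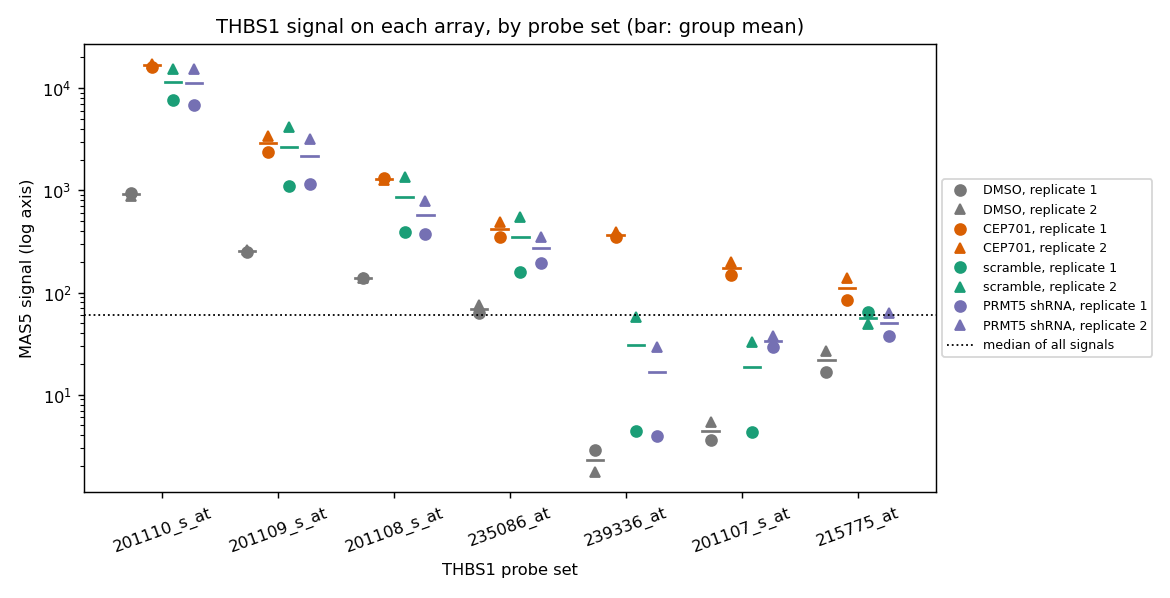
MAS5 signal of the 7 THBS1 probe sets on each array (log axis), with bars at the group means, circles for replicate 1, triangles for replicate 2 and a dotted line at the median of all signals. DMSO arrays are the lowest at every probe set except 201107_s_at, where scramble replicate 1 lies between them, and in the shRNA arm replicate 2 lies above replicate 1 at all but 215775_at with scramble.

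The next probe sets by signal gave the same order of DMSO against the rest. At 201109_s_at the arrays read 251 and 261 with DMSO, 2356 and 3409 with CEP701, 1110 and 4183 with scramble, and 1151 and 3154 with PRMT5 shRNA. Here scramble replicate 2 was the highest array of all, so CEP701 and the shRNA arm overlapped. At 201108_s_at they read 139 and 138 with DMSO, 1323 and 1269 with CEP701, 393 and 1344 with scramble, and 374 and 784 with PRMT5 shRNA. At 235086_at they read 63.8 and 75.2 with DMSO, 350 and 491 with CEP701, 159 and 544 with scramble, and 194 and 350 with PRMT5 shRNA. In both of these, scramble replicate 2 again exceeded the 2 CEP701 arrays.

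The remaining 3 probe sets gave weaker signals. 239336_at read 2.85 and 1.75 with DMSO, 347 and 393 with CEP701, 4.42 and 57.5 with scramble, and 3.98 and 29.3 with PRMT5 shRNA. 201107_s_at read 3.57 and 5.36 with DMSO, 150 and 199 with CEP701, 4.34 and 32.9 with scramble, and 29.0 and 37.8 with PRMT5 shRNA. 215775_at read 16.7 and 27 with DMSO, 83.8 and 140 with CEP701, 64.4 and 49.0 with scramble, and 37.6 and 63.7 with PRMT5 shRNA. At all 3, the CEP701 arrays were above every other array. The first and second of them exceeded the median of all signals, 59.98, on the CEP701 arrays alone, and so entered the tested set only through that group.

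Both CEP701 arrays were above both DMSO arrays at 7 of 7 THBS1 probe sets, where 34.3% of the 26725 tested probe sets showed this. By limma 2.99% of tested probe sets passed as higher and 1.79% as lower, and since the gene was picked for that contrast its own count supports nothing. On the log2(signal + 10) scale the difference ranged from 1.91 at 215775_at to 4.95 at 239336_at, with a median of 3.42 over the probe sets, and was 4.18 ± 0.37 (SE) at 201110_s_at. The added 10 holds down the size at the weakest probe sets, whose DMSO signals lie far below the median of all signals. Where DMSO exceeded the median of all signals on both arrays, the ratios of means were 18.3 at 201110_s_at, 11.3 at 201109_s_at, 9.36 at 201108_s_at and 6.05 at 235086_at. At the other 3 probe sets DMSO was below that median, and no ratio is given. With 1 added in place of 10 the log2 difference was 6.83 at 239336_at and 5.01 at 201107_s_at, and with 50 added 3.0 and 2.03. The actin 5' to 3' ratio, a measure of RNA quality, was 0.116 and 0.161 with CEP701 and 0.199 and 0.198 with DMSO, and its part in the THBS1 values was not tested.

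**Figure D2:**
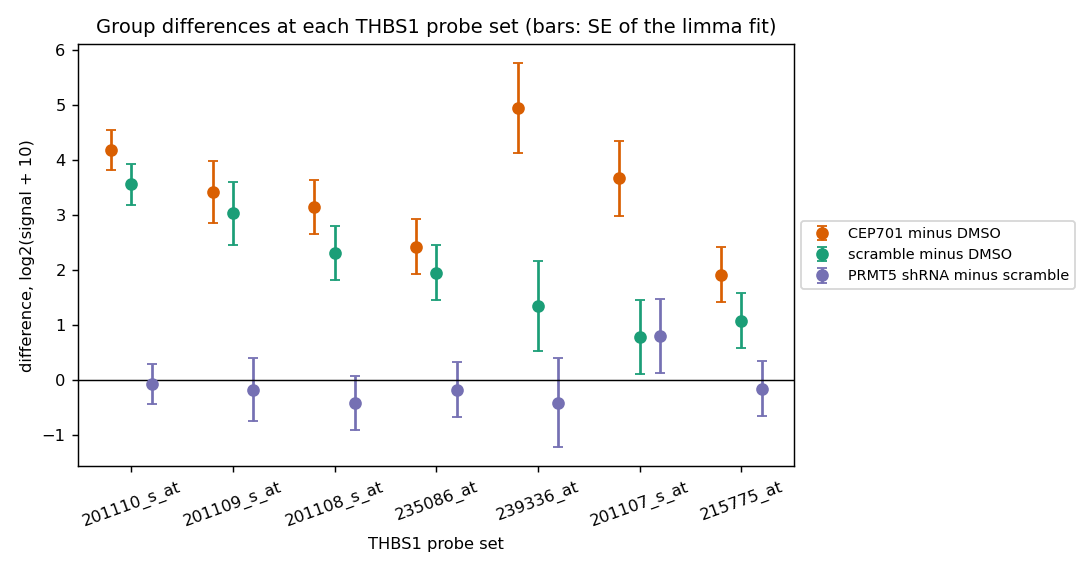
Differences between groups in log2(signal + 10) at each THBS1 probe set, with the SE of the fit as bars, in order of the mean CEP701 signal. CEP701 minus DMSO lies between 1.91 and 4.95 and PRMT5 shRNA minus scramble between -0.42 and 0.80, while scramble minus DMSO is 1.34 at 239336_at and 0.78 at 201107_s_at, where the sizes depend on the added 10.

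Scramble cells, which received no CEP701, also had more THBS1 signal than DMSO cells. Both scramble arrays were above both DMSO arrays at 6 of 7 probe sets, against 40.9% of all tested probe sets, and both PRMT5 shRNA arrays at 7 of 7, against 40.5%. The exception was 201107_s_at, where scramble replicate 1 lay between the DMSO arrays. The log2 difference of scramble minus DMSO was 3.56 at 201110_s_at, 3.03 at 201109_s_at, 2.31 at 201108_s_at and 1.95 at 235086_at. At 239336_at it was 1.34, at 215775_at 1.07 and at 201107_s_at 0.78. This comparison uses the same DMSO arrays as the one that picked the gene, and is set across the arms.

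The shRNA arm stood at different places relative to CEP701 by probe set. By ratios of means, CEP701 exceeded scramble 1.45-fold at 201110_s_at, 1.09-fold at 201109_s_at, 1.49-fold at 201108_s_at and 1.20-fold at 235086_at. At 239336_at, 201107_s_at and 215775_at scramble signals were at or below the median of all signals on at least 1 array, and no ratio is given. Scramble replicate 2 had a 201110_s_at signal of 15295 against 16268 on CEP701 replicate 1, and a 239336_at signal of 57.5 against 347. All CEP701 arrays were above all scramble arrays at 4 of 7 probe sets, against 32.5% of those tested, and above all PRMT5 shRNA arrays at 6 of 7, against 31.3%. Of the 7 probe sets, 239336_at and 201107_s_at were tested only through the CEP701 arrays. The gene was also picked for its CEP701 signal, so neither count supports anything.

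Within each array, the log2 ratio of a probe set to 201110_s_at sets aside the gene's overall level. For 239336_at that ratio was -5.51 and -5.41 in the CEP701 cells and -9.06, -7.83, -8.93 and -8.62 on the arrays of the shRNA arm, in the order of the scramble and then the PRMT5 shRNA replicates. For 201107_s_at it was -6.67 and -6.36 with CEP701 and -9.06, -8.48, -7.45 and -8.34 in the shRNA arm. At these 2 probe sets every CEP701 array was above every array of the shRNA arm. Both were tested only because of their CEP701 signals, so they had to be high there, and below the median of all signals the added 10 sets much of the ratio. Its size is therefore not read, nor does it show that the probe sets disagree. At the other 4 probe sets the ratios overlapped with those of the shRNA arm, and the mean differences of CEP701 minus scramble lay between -0.23 and 0.21. Mean ratios with CEP701 and PRMT5 shRNA were -3.68 and -4.22 at 201108_s_at and -7.14 and -7.44 at 215775_at. They were -2.55 and -2.42 at 201109_s_at and -5.30 and -5.25 at 235086_at. Where on the transcript each probe set lies was not analysed here.

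**Figure D3:**
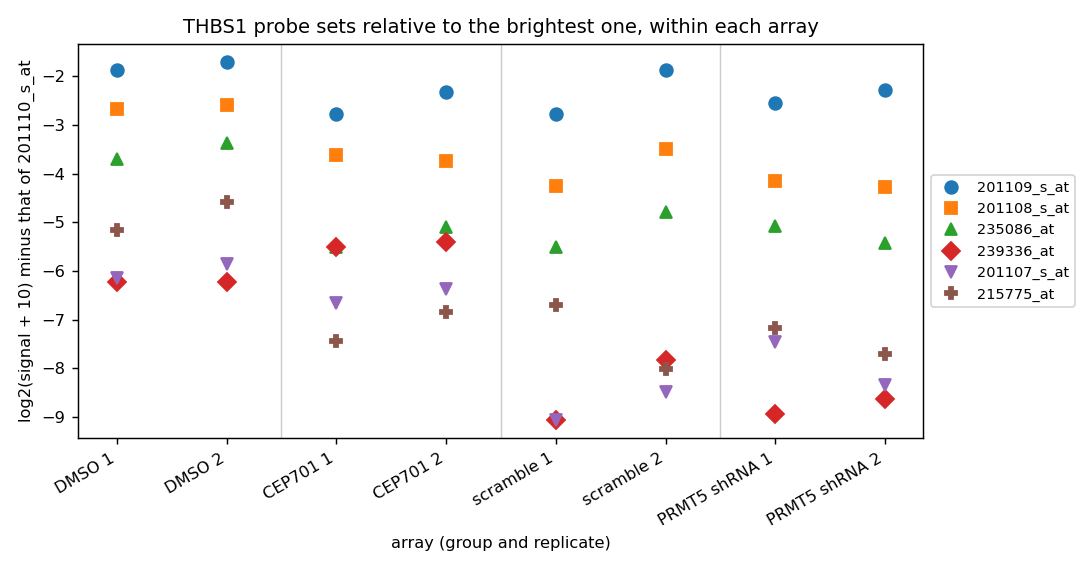
Within-array difference in log2(signal + 10) between each THBS1 probe set and the brightest one, 201110_s_at, on the 8 arrays. The diamonds of 239336_at and the downward triangles of 201107_s_at lie at -6.67 to -5.41 on the CEP701 arrays and at -9.06 to -7.45 in the shRNA arm, while the other probe sets overlap between CEP701 and the shRNA arm.

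On the DMSO arrays the ratios to 201110_s_at differed from those with CEP701. The within-array ratio of 215775_at to 201110_s_at was -5.16 and -4.58 with DMSO and -7.44 and -6.84 with CEP701, and that of 235086_at was -3.70 and -3.38 against -5.50 and -5.10. For 201108_s_at, above the median of all signals on every array, it was -2.68 and -2.58 with DMSO and -3.61 and -3.74 with CEP701. The difference between CEP701 and DMSO was thus smaller at these 3 probe sets than at 201110_s_at, by 2.27, 1.76 and 1.04 on the log2 scale. It was also smaller at 201109_s_at, by 0.76, and at 201107_s_at, by 0.52, and larger at 239336_at, by 0.77, where DMSO signals were below 3. By the root mean square difference of profiles centred over the 8 arrays, 201109_s_at was closest to 201110_s_at, at 0.39, followed by 201108_s_at at 0.62 and 235086_at at 0.77. The values were 1.14 for 201107_s_at and 215775_at alike and 1.45 for 239336_at.

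The comparison of PRMT5 shRNA with scramble asks whether THBS1 changes when the methyltransferase is knocked down, and the gene was not picked on it. The log2 difference was -0.08 ± 0.37 (SE) at 201110_s_at, with a 95% interval from -0.90 to 0.75 (limma, adjusted p = 0.998). Over the 7 probe sets the differences ran from -0.42 to 0.80, and adjusted p from limma from 0.935 to 0.998. By limma 0 of 7 passed, and 0 of 7 had an unadjusted p under 0.05, where 0.123% of all tested probe sets passed as lower and 0.00748% as higher. Neither group had both arrays above the other at any THBS1 probe set, while 15.3% of tested probe sets had scramble above PRMT5 shRNA in this way and 15.2% the reverse. The intervals do not show that the groups were alike: at 239336_at the interval ran from -2.22 to 1.40, and at 201107_s_at from -0.70 to 2.30.

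Arrays of the shRNA arm share a title suffix by replicate, and THBS1 signals were high in both groups with one suffix and low in both with the other. Between arrays of one suffix the difference of PRMT5 shRNA minus scramble at 201110_s_at was -0.17 for replicate 1 and 0.02 for replicate 2. At 201108_s_at the values were -0.07 and -0.77, and at 201109_s_at 0.05 and -0.41. Replicate 2 exceeded replicate 1 at 6 of 7 probe sets among the scramble arrays and at 7 of 7 among the PRMT5 shRNA arrays. In both groups at once it was higher at 6 of 7, against 34.7% of tested probe sets. By over 1 on the log2 scale, it did so at 5 of 7 among the scramble arrays and 4 of 7 among the PRMT5 shRNA arrays, against 6.11% and 6.96% of tested probe sets. At 201110_s_at the ratio was 2.0 with scramble and 2.27 with PRMT5 shRNA, and at 201109_s_at 3.77 and 2.74.

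The test of the suffix was added after these values were seen. With the suffix as a term in the model, THBS1 was higher in replicate 2 by 1.09 ± 0.10 (SE) at 201110_s_at (limma, adjusted p = 5.80e-04). It was higher by 1.68 at 201109_s_at (limma, adjusted p = 1.09e-03), by 1.40 at 201108_s_at (2.47e-03) and by 1.27 at 235086_at (0.0240). The difference at 239336_at, 1.86, did not pass (limma, adjusted p = 0.0810), nor did 0.94 at 201107_s_at (0.429) or 0.15 at 215775_at (0.913). Thus 4 of 7 probe sets passed as higher, and 0 as lower, against 3.89% and 4.32% of all tested. The 7 read a single gene in the same RNA and are not replicates. As their values prompted the test, these shares do not measure how unusual the count is. With eBayes run without a trend in the variance none of the 7 passed, and at 201110_s_at the adjusted p was 0.0910.

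Other alpha granule genes differed by the suffix in the same direction. Of 13 measured, 8 were higher in replicate 2 and none lower, with a median log2 difference of 0.93, against 0.02 over 14162 genes, of which 4.86% passed as higher and 5.82% as lower. Without a trend in the variance 0 of the 13 passed, and with poly-A scaling 6 were higher and 1 lower. The list was read for this difference after the THBS1 values were seen. SELP, the granule membrane's P-selectin, rose by 1.64 (limma, adjusted p = 4.47e-04), and the chemokine PPBP by 0.93 (1.37e-03). F13A1, a clotting transglutaminase, read 1032 and 4838 with scramble and 489 and 2183 with PRMT5 shRNA, and was higher by 2.18 (limma, adjusted p = 0.0443). Of 13 measured THBS1 receptors, 2 were higher in replicate 2 and 0 lower, against 4.86% and 5.82% of genes. Their median was 0.14. The 2 were ITGB3, the beta subunit of the platelet fibrinogen receptor, by 1.69 (limma, adjusted p = 9.82e-04), and ITGAV by 0.48 (0.0395). CD36 was at 0.14 (limma, adjusted p = 0.489). The actin 5' to 3' ratio was 0.141 on scramble replicate 1 and 0.179 on replicate 2, and 0.187 and 0.335 on the PRMT5 shRNA arrays. For GAPDH the ratio was 0.846 and 0.883 on the scramble arrays and 0.729 and 0.778 on the PRMT5 shRNA arrays. The part of RNA quality in these differences was not tested.

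Of the thrombospondin family, whose members share their C-terminal domains, 2 of 4 other members passed the filter on low signals. THBS3 read 82.4 and 113 with DMSO, 123 and 118 with CEP701, 216 and 281 with scramble, and 181 and 173 with PRMT5 shRNA. THBS4 read 35.1 and 61.1 with DMSO and 120 and 97.9 with CEP701. Neither passed in either contrast (limma, adjusted p = 0.600 and 0.310 for CEP701), with log2 differences of 0.29 and 1.07. THBS2 and COMP did not pass the filter, with highest signals of 39.7 and 37.5. Of 20 measured genes of other proteins that carry thrombospondin type 1 repeats, such as the ADAMTS proteases, limma called 0 in either contrast. Among all genes 3.68% passed as higher and 1.95% as lower with CEP701, and 0.0141% and 0.141% with PRMT5 shRNA, so 0 is near the background. Several of the 20 had low signals, as ADAMTS6 at 1.90 to 85.4 and C6 at 6.33 to 101. Of the 20, 1 had an unadjusted p under 0.05 with CEP701 and 3 with PRMT5 shRNA. The list's median with CEP701 was 0.26, against 0.10 over all genes.

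All 13 receptors of thrombospondin 1 on the list were measured, and with CEP701 1 rose and 2 fell, against 3.68% and 1.95% of genes overall. CD36, the scavenger receptor that mediates its antiangiogenic action, read 1145 and 1042 with DMSO and 2393 and 2289 with CEP701. It rose by 1.09 (limma, adjusted p = 5.79e-03), at 1 of its 5 probe sets tested, and the call was lost when signals were scaled to the poly-A controls (adjusted p = 0.117). In the shRNA arm CD36 was at 8596 to 11595. CD47, the integrin-associated receptor that also signals to phagocytes, read 25638 and 28279 with DMSO and 19837 and 17091 with CEP701, and fell by 0.55 (limma, adjusted p = 0.0442), at 2 of 7 probe sets. Its call was lost with no filter on low signals (adjusted p = 0.100). CALR, calreticulin, which binds thrombospondin 1 at the cell surface, fell by 0.72 (limma, adjusted p = 0.0170), at 2 of 3 probe sets. With a single array of the drug arm left out, whichever it was, CD36, CD47 and CALR no longer passed. Of the 10 genes called with CEP701 in the lists, 2 passed without CEP701 replicate 1, 2 without replicate 2, 3 without DMSO replicate 1 and 2 without replicate 2, and SKIL and ID1 were among those kept each time.

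Of 8 measured ligands and enzymes that thrombospondin 1 binds, 0 rose and 1 fell with CEP701, against 3.68% and 1.95% of genes overall. This was VEGFA, the main angiogenic growth factor. It read 935 and 801 with DMSO and 274 and 306 with CEP701, and fell by 1.55 (limma, adjusted p = 8.54e-03), at 1 of 4 probe sets. TGFB1, whose latent form thrombospondin 1 activates, read 2645 and 2876 with DMSO and 1955 and 2020 with CEP701, a log2 difference of -0.47 that did not pass (limma, adjusted p = 0.304). Of 11 measured TGF-beta response genes 2 rose and 0 fell, against 3.68% and 1.95% of all genes, and the list's median was 0.49, against 0.10. SMAD7, the inhibitory SMAD, rose by 3.01 from signals of 22.9 and 5.65, and SKIL, a repressor of SMAD activity, rose by 1.97 (limma, adjusted p = 9.75e-03 and 1.49e-03). The others did not pass, among them TGFB1I1 at 1.01, PMEPA1 at 0.88 and SMAD6 at 0.62, and in the other direction TGFBI at -0.85, BHLHE40 at -0.39, LTBP2 at -0.34 and COL1A1 at -0.32.

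Of 8 measured factors reported to act on THBS1 transcription, 1 rose and 2 fell with CEP701, against 3.68% and 1.95% of genes overall. JUN, a subunit of AP-1, read 362 and 323 with DMSO and 685 and 739 with CEP701, and rose by 1.04 at 2 of 4 probe sets (limma, adjusted p = 0.0259). That call was lost with quantile normalization (adjusted p = 0.0517) and poly-A scaling (0.216). ID1, an inhibitor of helix-loop-helix factors that represses THBS1, fell by 2.83 from 5396 and 4838 to 672 and 752 (limma, adjusted p = 1.51e-03), and in the shRNA arm it was at 102 to 177. WT1, a zinc finger factor, fell by 0.80 at 1 of 2 probe sets (limma, adjusted p = 0.0265). MYC, at -0.41, and EGR1, whose letters stand in the window printed above, at -1.04, did not pass (limma, adjusted p = 0.543 and 0.177). MIR17HG, host of the miR-17-92 cluster that targets THBS1, did not pass the filter, with a highest signal of 27.4.

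Of 13 measured alpha granule genes, 1 rose and 0 fell with CEP701, against 3.68% and 1.95% of genes overall. This was SRGN, the granule proteoglycan, which rose by 0.61 (limma, adjusted p = 0.0423). The call was lost with no filter, quantile normalization, median scaling and poly-A scaling. The list's median was -0.00. PF4, the megakaryocyte chemokine stored beside thrombospondin 1, read 1725 and 1980 with DMSO and 1084 and 1054 with CEP701, a difference of -0.78 that did not pass (limma, adjusted p = 0.130). In the shRNA arm PF4 was at 21810 to 45436 and PPBP at 18387 to 47271, against 357 to 565 for PPBP in the drug arm. With PRMT5 shRNA limma called 0 genes in each of the 7 lists of related genes, against 0.0141% of genes as higher and 0.141% as lower. At an unadjusted p under 0.05 the lists held between 0 and 4. The lowest adjusted p among them was 0.105, at VEGFA, with signals of 3322 and 4999 with scramble and 1522 and 1930 with PRMT5 shRNA. With a replicate block in both arms 6 genes of these lists passed, all lower, where 0.989% of genes passed as lower and 0.113% as higher. These were VEGFA (-1.24; limma, adjusted p = 3.10e-03), CTSG, BHLHE40, TGFB1I1, TIMP1 and CCL5. The labels do not say that the shared suffix pairs the samples.

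The genes beside THBS1 on chromosome 15 were examined for the same differences. Of the 5 measured genes on either side, limma called 0 of 10 with CEP701 and 0 of 10 with PRMT5 shRNA, where 3.68% and 1.95% of genes passed as higher and lower with CEP701 and 0.0141% and 0.141% with PRMT5 shRNA, so a count of 0 is near the background. Of the 10, 2 had an unadjusted p under 0.05 with CEP701 (FAM98B and BMF) and 0 with PRMT5 shRNA. FSIP1, at chr15:39597440-39782841, overlaps the end of THBS1 in RefSeq. It read 76.5 and 72.7 with DMSO and 57.6 and 94.6 with CEP701, with a log2 difference of -0.01 (limma, adjusted p = 0.993). LINC02915, 326 kb before THBS1, read 138 and 222 with DMSO and 292 and 366 with CEP701, and its difference of 0.86 did not pass (limma, adjusted p = 0.543). GPR176, an orphan receptor 200 kb after it, was at 0.02, and RASGRP1, a Ras activator, at 0.49. SPRED1 (-0.21), TMCO5A (0.44), EIF2AK4 (0.02), SRP14 (0.14), FAM98B (-0.41) and BMF (0.75) did not pass either.

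The 8 genes with the profile most like 201110_s_at, of 14161 compared by the root mean square difference of centred log2 profiles over 8 arrays, were CCDC13, DPEP2, YPEL3, LGALS12, SMAD7, SERHL2, PDE7B and ARID5B. Their differences to THBS1 ran from 0.42 to 0.72, with 0.724 for the next gene and a median of 1.71 over all genes. All 8 were low on the DMSO arrays and higher on the 6 others, which is what the search looked for. At CCDC13, DPEP2, LGALS12, SMAD7, SERHL2 and PDE7B the DMSO signals were 5.08 to 22.9, below the median of all signals. There the added 10 sets much of the depth of the DMSO values, and so of the match to THBS1. Only YPEL3 and ARID5B were above that median on all 8 arrays. DPEP2, a membrane dipeptidase, read 12.7 and 9.55 with DMSO, 183 and 179 with CEP701, 104 and 377 with scramble, and 106 and 198 with PRMT5 shRNA. ARID5B, a chromatin factor, read 179 and 124, 886 and 1019, 1636 and 2738, and 1134 and 2637 in the same order of groups. DPEP2 and ARID5B were thus like THBS1 in having higher signals in replicate 2 of the shRNA arm. Since their profiles were chosen to match THBS1 on all 8 arrays, no test of either contrast is given for them as genes of this search. SMAD7 was tested above only as a member of the TGF-beta response list. SERHL2 was read by a probe set of the type that may cross-hybridize, as were CALR, JUN, PF4 and COL1A1 above.

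**Figure D4:**
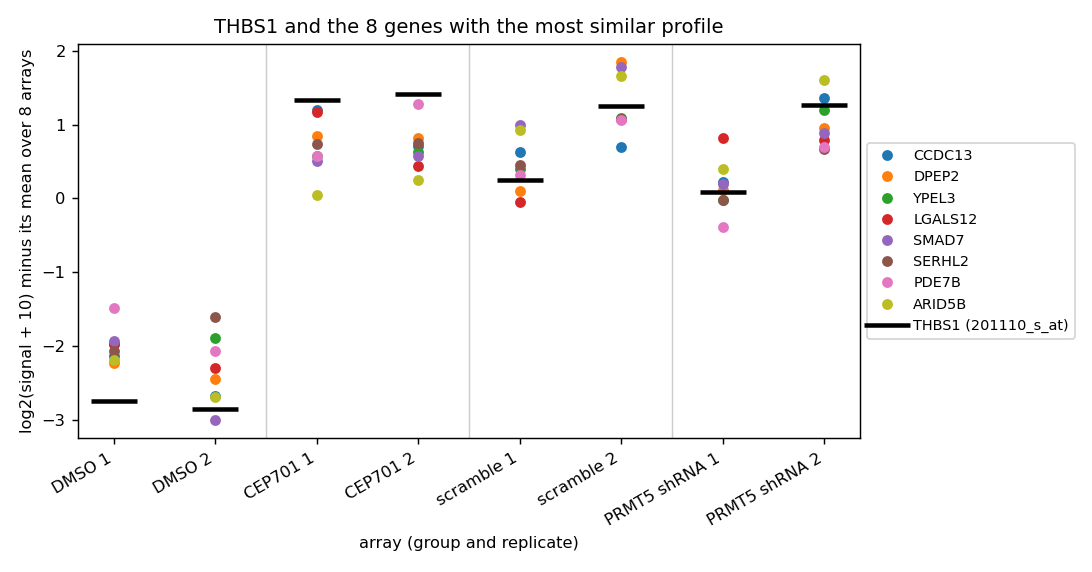
Log2(signal + 10) minus its mean over the 8 arrays, for THBS1 at 201110_s_at (black bars) and the 8 genes most like it (points). On both DMSO arrays all 9 genes lie below their mean, and the THBS1 bar is above its mean on all 6 others.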

How the data were processed

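Gene expression was measured on 8 arrays in 4 groups of 2. Each deposited value is the intensity of a probe set before any log transform; the submitters' processing notes name MAS5 and Affymetrix Expression Console as the tools the authors used. Probe sets were named from the platform annotation, with symbols updated through gene identifiers to RefSeq.

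The members, the lists of related genes and the tests were chosen with earlier results of these data known. Signals plus 10 were log2-transformed. Probe sets that name a single gene and exceeded the median of all signals (59.98) on at least 2 arrays were tested, 26725 in all. One limma model (3.58.1, R 4.3.3, the data.table package at 1.17.8; eBayes with a trend; 4 residual and 5.91 prior degrees of freedom) held the 4 groups. Benjamini-Hochberg adjustment ran over all 26725, with a threshold of 0.05. Genes in lists were represented by their probe set with the highest mean, 14162 in all. The fit was tested on simulated data. Alternatives covered the added value, filter, scaling, block, variance model and the omission of any array. Only 2 arrays per group limit every value.

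Named were all THBS1 probe sets, PRMT5, 5 measured neighbours on each side, the 8 genes with the most similar profile, and, of each list, the thrombospondins, CD36, CD47 and up to 4 genes that passed. Genes named beyond these were chosen after their values were seen. Deviations of arrays that share a replicate correlated across probe sets in the shRNA arm (r = 0.303) and not in the drug arm (r = -0.0051).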

Additional observations from a re-analysis of the deposited data

How the results depend on the processing

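With 2 arrays per group, signal near background and single arrays limit these results. The log2 difference of CEP701 minus DMSO kept its sign at all 7 THBS1 probe sets in every alternative run. At 201110_s_at it was 4.05 with quantile normalization, 3.93 with median scaling and 3.68 with poly-A scaling (all tested probe sets then had a median of -0.37), and 4.12 to 4.24 when single arrays were left out. At 239336_at it ran from 3.0 to 6.83 and at 201107_s_at from 2.03 to 5.01 with the added value. No THBS1 probe set passed for PRMT5 shRNA minus scramble in any alternative. Its sign there rested on single arrays: leaving out 1 array at a time gave -0.67 to 0.51 at 201110_s_at, -1.29 to 0.46 at 201108_s_at, -1.13 to 0.78 at 201109_s_at, -0.48 to 0.15 at 215775_at, -1.03 to 0.68 at 235086_at and -1.53 to 0.70 at 239336_at. With a replicate block in both arms, adjusted p at the THBS1 probe sets was 0.445 to 0.957, and PRMT5 passed (adjusted p = 3.32e-04, against 0.222 without it). The labels do not say what the shared suffix marks.

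The count of probe sets called for CEP701 was 1278 (799 higher, 479 lower). It was 748 with no filter, 730 with quantile normalization, 1926 with poly-A scaling (170 higher, 1756 lower), 4537 with a replicate block in both arms, 4555 with the replicate block in the shRNA arm, 105 without a variance trend, 819 with 1 probe set a gene and 4403 with the drug arm alone. Median scaling gave 377 higher and 1193 lower. Leaving out single arrays gave 32 to 1820. For PRMT5 shRNA the count was 35, and 60 with 50 added, 15 with no filter, 226 and 243 with these blocks, 0 without a trend and 0 with the shRNA arm alone, 21 with 1 probe set a gene, and 4 to 33 without single arrays. Of 10 list genes called with CEP701, SKIL and ID1 passed in every alternative. Omitting any array of the drug arm kept 2 to 3 of the 10, a fit without a variance trend kept 2, and poly-A scaling kept 7. None changed sign. The suffix count of probe sets, 2194, was 1 to 3155 over its alternatives. The suffix difference at 215775_at was -0.10 with poly-A scaling. The cause of these changes was not tested.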
